A study of Mus musculus with 18 samples.

Results

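Melanin pigment genes encode the proteins that build melanosomes, the organelles in which melanin is made and stored. In all, 10 such genes were chosen by name, with no rule on their values but with earlier results of these data known: *Mitf*, *Tyr*, *Tyrp1*, *Dct*, *Pmel*, *Mlana*, *Oca2*, *Slc45a2*, *Slc24a5* and *Gpr143*. They are 10 of the 47729 genes in the count table, and all 10 were among the 18958 genes with enough counts to be tested.

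RNA from the retinal pigment epithelium (RPE), the pigmented cell sheet behind the photoreceptors, was profiled in 9 *rd1* mice at P40 (postnatal day 40). The labels name all 18 samples as *rd1*, whereas the study's methods give fewer pairs of that strain at this age, so n = 9 rests on the labels. These mice, on the FVB/N background, lack a working rod phosphodiesterase, lose their rods early and their cones later. One eye of each mouse was injected under the retina with 2 adeno-associated viruses, AAV-Best1-Nrf2 and AAV-Best1-GFP (Best1-Nrf2 eyes, n = 9), and the fellow eye with AAV-Best1-GFP alone (control eyes, n = 9), which lets the pigment genes be compared with and without Nrf2 within an animal. Both groups therefore carried the GFP vector, and in both the human *Best1* promoter limited expression from the vectors to the RPE. By the study's methods, the Nrf2 vector had another capsid and came on top of the GFP vector, for a higher total dose. Effects of Nrf2 and of this added vector load cannot be told apart here. The Nrf2 vector carries the human cDNA. The FVB/N strain is albino because its tyrosinase carries a missense change that destroys enzyme activity, so these genes were read in cells that make the transcripts but no melanin. The RNA came from the fluid over the opened eyecup after the retina had been lifted off, and choroid cells, including choroidal melanocytes, lie under the RPE in such a cup.

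Melanin synthesis begins with tyrosinase, which oxidizes tyrosine, and the related enzymes TYRP1 and DCT act on later intermediates. PMEL forms the fibrils on which melanin is laid down, and membrane transporters of the melanosome set its pH and its ions. MITF, a transcription factor of the basic helix-loop-helix zipper family, switches on most of these genes in both pigment cell lineages, which are the RPE (from the neural tube) and melanocytes (from the neural crest). In mice most pigment of the RPE is laid down before and shortly after birth.

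MITF is known to bind a short DNA word, CATGTG, which is most often preceded by a T in pigment gene promoters. The promoters of the tyrosinase family are shown because the change of *Tyr* with Best1-Nrf2 differed from those of its homologues *Tyrp1* and *Dct*. None of these genes was itself called between the groups. Each is the stretch of 250 bases before the transcription start in RefSeq on GRCm38.p6, 5′ to 3′ on the coding strand, with every CATGTG, or CACATG where the word lies on the other strand, in capitals. They lie at chr7:87493513-87493762 (minus strand, *Tyr*), chr4:80833963-80834212 (plus strand, *Tyrp1*) and chr14:118052247-118052496 (minus strand, *Dct*).
Tyr: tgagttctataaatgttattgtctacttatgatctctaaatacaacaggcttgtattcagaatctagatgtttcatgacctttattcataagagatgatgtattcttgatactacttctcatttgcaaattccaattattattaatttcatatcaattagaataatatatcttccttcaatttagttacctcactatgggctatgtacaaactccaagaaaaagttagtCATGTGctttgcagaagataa
Tyrp1: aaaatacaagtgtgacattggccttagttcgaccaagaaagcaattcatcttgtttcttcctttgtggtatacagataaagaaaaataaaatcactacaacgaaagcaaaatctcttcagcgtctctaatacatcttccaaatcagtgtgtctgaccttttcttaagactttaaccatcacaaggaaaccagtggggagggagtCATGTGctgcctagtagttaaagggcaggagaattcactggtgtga
Dct: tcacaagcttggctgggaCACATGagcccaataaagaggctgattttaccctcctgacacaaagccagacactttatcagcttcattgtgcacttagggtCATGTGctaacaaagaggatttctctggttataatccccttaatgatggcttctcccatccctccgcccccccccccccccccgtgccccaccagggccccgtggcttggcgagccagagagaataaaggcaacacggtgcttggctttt
The longer word TCATGTG, which contains CATGTG, began 22 bases before the start of *Tyr* and 47 bases before that of *Tyrp1*. In *Dct* it began 151 bases before the start, and again, on the opposite strand, 232 bases before it. The RefSeq promoter table used held 6 of the 10 genes, and promoters of *Pmel*, *Mlana*, *Slc45a2* and *Gpr143* were not used here. Counting both strands and 300 bases a promoter (250 before and 50 from the start on), CATGTG was present in 5 of these 6 genes (*Tyr*, *Tyrp1*, *Dct*, *Oca2* and *Slc24a5*) and, since the table used holds 3 windows for *Mitf*, in 5 of 8 windows of these genes, against 14.2% of all 32851 promoters. TCATGTG was present in 4 of the 6 (all of those but *Oca2*), or 4 of the 8 windows, against 3.77% of all promoters. Of other words searched on both strands, CACGTG was in none of the 8 windows, against 7.15% of all. TAATCC, a word bound by OTX2, was in 3 of the 8 (*Tyrp1*, *Dct* and 1 of *Mitf*), against 7.06%. TGACNNNGC, the core of the element that NRF2 binds, was in 1 of the 8 (*Mitf*), against 12.4%. These are matches of letters, and binding was not measured.

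Library totals were 18956748 to 44054836 counts in control eyes and 32839893 to 49598700 in Best1-Nrf2 eyes. *Nfe2l2*, the mouse gene of Nrf2, averaged 89.7 ± 17.8 CPM (counts scaled to a common library size; SD, n = 9) in controls against 454 ± 147 CPM with Best1-Nrf2, and was higher in 9 of 9 mice (log2 fold change, 2.29 ± 0.21 SE; adjusted p = 6.21e-05, edgeR); reads of the human cDNA were not separated from it. All 6 choroidal melanocyte markers outside the 10 genes had counts, with control means of 0.342 CPM for *Pax3*, 1.80 for *Mc1r*, 10.8 for *Ednrb*, 17.2 for *Erbb3*, 26.3 for *Kit* and 29.6 for *Sox10*. The 12 RPE markers ran from 1.46 CPM for *Best1* to 12874 CPM for *Ttr*. Of cell markers that could reach the sample from beyond the RPE, 9 of 11 cone genes were lower in Best1-Nrf2 eyes (median log2 fold change, -3.25) and 7 of 12 macrophage and microglia genes were higher (median, 1.65).

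The control eye of mouse 8 stood apart in the pigment genes: it held the lowest control value of 9 of the 10, *Mlana* being the exception. The mean log2 CPM of the 10 genes was 6.61 in that eye and 7.79 to 8.47 in the other control eyes. Its RPE marker score (mean log2 CPM of 12 RPE markers outside the 10 genes) was also the lowest, 7.92 against 9.00 to 10.07, while its melanocyte marker score of 2.73 lay within the range of the others (2.06 to 3.34). That library was also the smallest, at 18956748 counts against 28225037 in the next control eye. The part of depth in these values was not tested. Results that rest on this eye are given with and without it.

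Of the 10 genes, 1 was called lower in Best1-Nrf2 eyes at an adjusted p under 0.05 (edgeR with mouse as a block) and 0 were called higher. Over all genes tested, 4.25% were called (1.13% lower and 3.12% higher). With 10 genes a single call is 10%, and it is not read as a result about the group. At an unadjusted p under 0.05 there were 3 of the 10 (*Gpr143*, *Tyr* and *Slc45a2*), against 12.8% of all genes. The fitted log2 fold change was below 0 for 7 and above 0 for 3, with a median of -0.25 against -0.03 over all genes. In bulk RNA, fewer cells of a type and less RNA per cell cannot be told apart, and this holds for every value here.

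**Figure D1:**
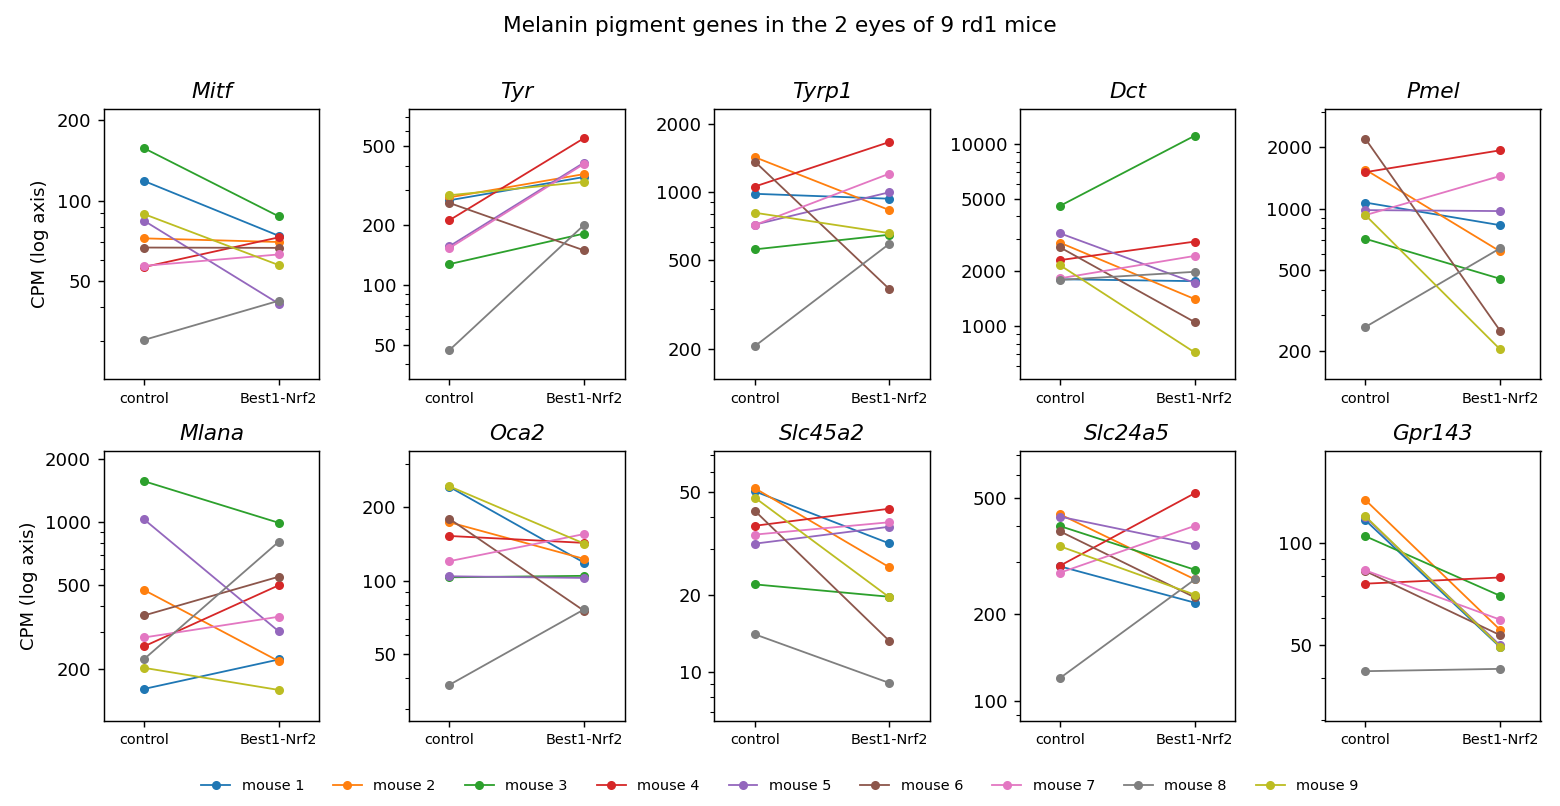
CPM of each of the 10 melanin pigment genes (log axis) in the control eye and the Best1-Nrf2 eye of 9 mice, with a line for each mouse. The lines of *Gpr143* fell in 7 of 9 mice and those of *Tyr* rose in 8 of 9, while the other genes crossed in both directions, and the control eye of mouse 8 (grey) is the lowest control point in 9 panels.

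*Gpr143* encodes a G protein-coupled receptor of the melanosome membrane and is the gene of ocular albinism. It lies at chrX:152781921-152808646 (plus strand, GRCm38). Its control eyes stood at 41.8 CPM at the lowest, 105 at the median and 134 at the highest, and in Best1-Nrf2 eyes 42.5, 53.5 and 79.2. The groups overlapped only through the control eyes of mice 8 and 4, the lowest controls, at 41.8 and 76.0 CPM. The mean of *Gpr143* was 97.7 ± 29.1 CPM (SD, n = 9) without Best1-Nrf2 and 56.5 ± 11.5 with it. The gene fell by 0.74 ± 0.19 (SE) on the log2 scale, in 7 of 9 mice, with an adjusted p of 0.0473 (edgeR). An exact sign-flip permutation test over the 9 within-mouse differences gave a two-sided p of 0.0156 (unadjusted). The differences of mice 4 and 8, at 0.06 and 0.02 on the log2 scale, were the 2 that did not fall. The call sits close to the threshold: it was lost when any 1 of mice 1, 2, 3, 5, 6, 7 or 9 was left out (adjusted p, 0.0519 to 0.159) and under other scalings, while without mouse 8 it was -0.84 (adjusted p = 0.0349). The sign stayed below 0 in all 20 alternatives.

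Of the 12 RPE markers, 6 fell, 0 rose and 6 did not pass. Among those that fell were *Rpe65* (isomerase of the visual cycle), *Lrat* (its partner, which makes retinyl esters), *Rgr* (an RPE opsin) and *Rlbp1* (a carrier of retinal). The median log2 fold change over the 12 was -0.78. *Rpe65* fell from 2021 ± 846 to 297 ± 177 CPM, in 9 of 9 mice (-2.81 ± 0.31; adjusted p = 2.41e-04, edgeR). The RPE marker score ran from 7.92 to 10.07 in control eyes and from 8.02 to 9.14 in Best1-Nrf2 eyes, and was lower in 8 of 9 mice. With it as a covariate the calls over all genes went from 806 to 224 (to 35 with a score of photoreceptor markers). With the RPE score as a covariate, the log2 fold change of *Gpr143* was -0.06 (adjusted p = 0.918), and with a score of photoreceptor markers it was -0.24 (adjusted p = 0.80). With the melanocyte marker score as a covariate, *Gpr143* was still called lower (-0.77, adjusted p = 0.0246, edgeR). The RPE score itself differed between the groups, as did the cone and rod scores (each lower in 8 of 9 mice). Such a covariate takes up part of any group difference. The melanocyte score differed little (lower in 5 mice, higher in 4), so these fits cannot show where the change of *Gpr143* came from.

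Across the 9 control eyes *Gpr143* was also the pigment gene that tracked the RPE marker score most closely (Pearson r = 0.938, exact permutation p = 0.00102, adjusted over 40 relations 0.0408; Spearman rho = 0.833, p = 0.00827, adjusted 0.108). Without the 2 eyes whose score lay farthest from the median r was 0.841, and without mouse 8 it was 0.812. Across the 9 Best1-Nrf2 eyes the same r was 0.536 (adjusted exact permutation p = 0.498), and the difference between the groups was not tested. *Mitf* came next, with r = 0.851 in control eyes and 0.837 in Best1-Nrf2 eyes, both at an adjusted permutation p of 0.0741. Without mouse 8 these were 0.669 and 0.76, and the control value was 0.583 without the 2 farthest eyes.

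Within the RPE list the changes were unequal, and 6 of its members did not pass. These were *Slc16a8* (a lactate transporter; -0.60), *Mertk* (the receptor for engulfing outer segments; -0.59), *Stra6* (a retinol uptake receptor; -0.42), *Rrh* (an opsin; -0.16), *Ttr* (a carrier of retinol and thyroxine; 0.44) and *Best1* (a chloride channel; 0.97), the last higher in 9 of 9 mice (adjusted p = 0.0555, edgeR).

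*Tyr* encodes tyrosinase, the rate-limiting enzyme of melanin synthesis, at chr7:87424771-87493512 (minus strand). It read 47.0 CPM at the lowest, 212 at the median and 283 at the highest in control eyes, and the corresponding Best1-Nrf2 values were 149, 350 and 550 CPM. The groups overlapped, but 8 of 9 mice had the higher value in the Best1-Nrf2 eye, mouse 6 being the exception (259 against 149 CPM). The means were 198 ± 81.9 and 327 ± 130 CPM, for a log2 fold change of 0.78 ± 0.27 (95% interval, 0.25 to 1.32) that did not pass the test over all genes (adjusted p = 0.19, edgeR; exact sign-flip p = 0.0391, unadjusted). Without mouse 8 it was 0.62 (adjusted p = 0.324). Without mouse 6 it was 0.97 and passed (adjusted p = 0.0314), as it did with limma voom and sample weights (0.87, adjusted p = 0.0224). It passed in no other alternative. With DESeq2 it was 0.79 (adjusted p = 0.0642). With the photoreceptor score as a covariate it was 0.41 (adjusted p = 0.782, edgeR). With the RPE score it was 1.05 (adjusted p = 0.282, edgeR).

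*Tyrp1*, on chromosome 4, encodes the tyrosinase-related protein that oxidizes DHICA and stabilizes tyrosinase. Its control eyes ran from 206 to 1426 CPM with a median of 808, and its Best1-Nrf2 eyes from 369 to 1666 CPM with a median of 829. It was higher in 5 mice and lower in 4, with a log2 fold change of 0.08 ± 0.31 (adjusted p = 0.963, edgeR; 95% interval, -0.52 to 0.69). *Dct*, on chromosome 14, encodes dopachrome tautomerase, the third of these homologues. It ran from 1790 to 4573 CPM in control eyes with a median of 2302, and from 715 to 11115 CPM in Best1-Nrf2 eyes with a median of 1763. The highest value belonged to the Best1-Nrf2 eye of mouse 3, next to which stood mouse 4 at 2909 CPM, and mouse 3 also had the highest control value. The fitted change of *Dct* was -0.31 ± 0.32 (adjusted p = 0.809, edgeR; 95% interval, -0.93 to 0.31).

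The 3 homologues did not change alike. The log2 change of *Tyr* exceeded that of *Tyrp1* in 9 of 9 mice, by 0.71 ± 0.29 (SD; exact sign-flip p = 0.0039, the smallest that 9 mice allow, and 0.0117 adjusted over 3 pairs). It exceeded that of *Dct* in 8 of 9 mice, by 1.08 ± 0.94 (exact sign-flip p = 0.0156, adjusted 0.0234). Without mouse 8 these gaps were 0.73 and 0.98 (adjusted exact p, 0.0234 and 0.0468). *Tyrp1* and *Dct* differed by 0.37 ± 0.86 (exact sign-flip p and adjusted p, 0.203).

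The same test was then run on all 45 pairs of the 10 genes, a choice made after these values had been seen. It passed in 11 pairs (p adjusted over 45), 7 of which involved *Tyr*. The change of *Tyr* was above that of *Tyrp1*, *Pmel*, *Oca2* and *Slc45a2* in 9 of 9 mice (each at an adjusted exact p of 0.0352), by 1.38 ± 0.65 for *Pmel*, 1.03 ± 0.38 for *Oca2* and 1.32 ± 0.58 for *Slc45a2*. It was above that of *Slc24a5*, *Gpr143* and *Mitf* in 8 of 9 mice (adjusted 0.0439, 0.0439 and 0.0479). *Dct* (adjusted 0.0585) and *Mlana* (0.74 ± 1.25, adjusted 0.255) did not pass in this larger family. The other 4 pairs placed the change of *Tyrp1* above those of *Pmel* (0.67 ± 0.58, 9 of 9 mice) and *Slc45a2* (0.60 ± 0.66, 8 of 9 mice), and that of *Gpr143* below those of *Mitf* (by 0.49 ± 0.40) and *Slc24a5* (by 0.65 ± 0.42), with adjusted exact p values from 0.0352 to 0.0479. Without mice 6 and 8, 0 of 45 pairs passed, where the smallest p that 7 mice allow is 0.016 and the smallest adjusted p reached was 0.0638, so a pass would have needed more pairs at that smallest p. A single direction was seen in 11 pairs over all of these 7 mice, and in 5 pairs over all 9.

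**Figure D2:**
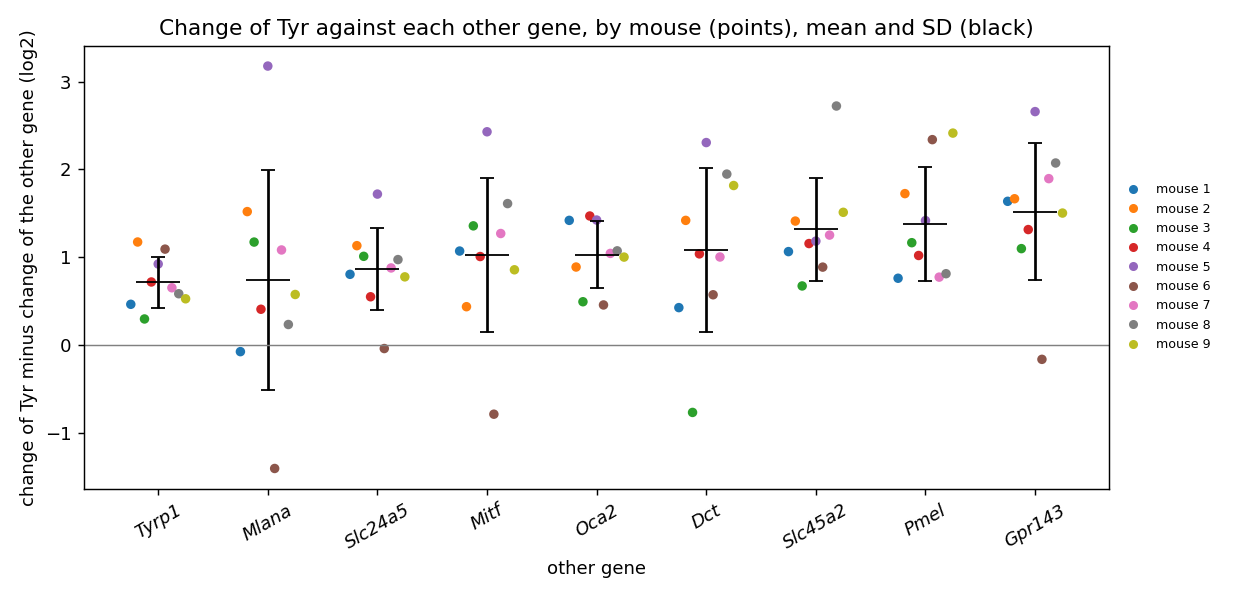
Within-mouse log2 change of *Tyr* minus that of each other gene, with a coloured point for each of 9 mice and the mean and SD in black. All 9 points lie above 0 for *Tyrp1*, *Oca2*, *Slc45a2* and *Pmel*, and mouse 6 lies below 0 for *Mlana*, *Slc24a5*, *Mitf* and *Gpr143*.

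*Pmel* encodes the fibril protein of the melanosome. It read 262, 983 and 2203 CPM (lowest, median and highest) in control eyes and with Best1-Nrf2 203, 638 and 1934 CPM, so the groups covered nearly the same range. Its change differed widely between mice, from -3.13 in mouse 6 to 1.28 in mouse 8 on the log2 scale, and the fit gave -0.56 ± 0.43 (adjusted p = 0.702, edgeR), or -0.27 without mouse 6. Its exons overlap those of *Cdk2* and *Dgka* on the other strand, with 3.54% of its 31-base words shared with other genes. *Mlana*, whose product MART-1 sorts PMEL in early melanosomes, read 160, 282 and 1572 CPM in control eyes and with Best1-Nrf2 158, 354 and 995 CPM. The groups covered much the same range. It was higher in 5 mice and lower in 4, with a fitted change of 0.04 ± 0.35 (adjusted p = 0.984, edgeR).

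Among the transporters, *Slc45a2*, which helps keep melanosomes from becoming acidic, had the largest fitted change. Its control eyes read 14.02, 37.1 and 51.9 CPM (lowest, median and highest) and its Best1-Nrf2 eyes 9.06, 25.5 and 43.2 CPM, with 6 of 9 mice lower. The log2 fold change was -0.54 ± 0.23 (95% interval, -0.98 to -0.09), which did not pass the test over all genes (adjusted p = 0.321, edgeR). *Oca2*, a chloride channel of the melanosome, read 37.6, 153 and 243 CPM in control eyes and with Best1-Nrf2 75.4, 119 and 155 CPM, and its Best1-Nrf2 eyes lay inside the control range only through the control eye of mouse 8. The next control stood at 103 CPM, and the Best1-Nrf2 eyes of mice 5, 6 and 8 lay below it (-0.25 ± 0.23; adjusted p = 0.759, edgeR). *Slc24a5*, a potassium-dependent sodium-calcium exchanger, read 120, 340 and 438 CPM in control eyes and with Best1-Nrf2 218, 262 and 518 CPM (-0.10 ± 0.23; adjusted p = 0.940, edgeR). Its exons overlap those of *Myef2* on the other strand and 40.2% of its 31-base words are shared, so its counts are uncertain. *Mitf*, the regulator, read 30.2, 72.3 and 157 CPM in control eyes and with Best1-Nrf2 41.2, 66.7 and 87.4 CPM. Its spread between eyes was smaller with Best1-Nrf2 (SD, 15.01 against 37.5 CPM; not tested), and its change was -0.25 ± 0.19 (adjusted p = 0.697, edgeR; 95% interval, -0.62 to 0.12).

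**Figure D3:**
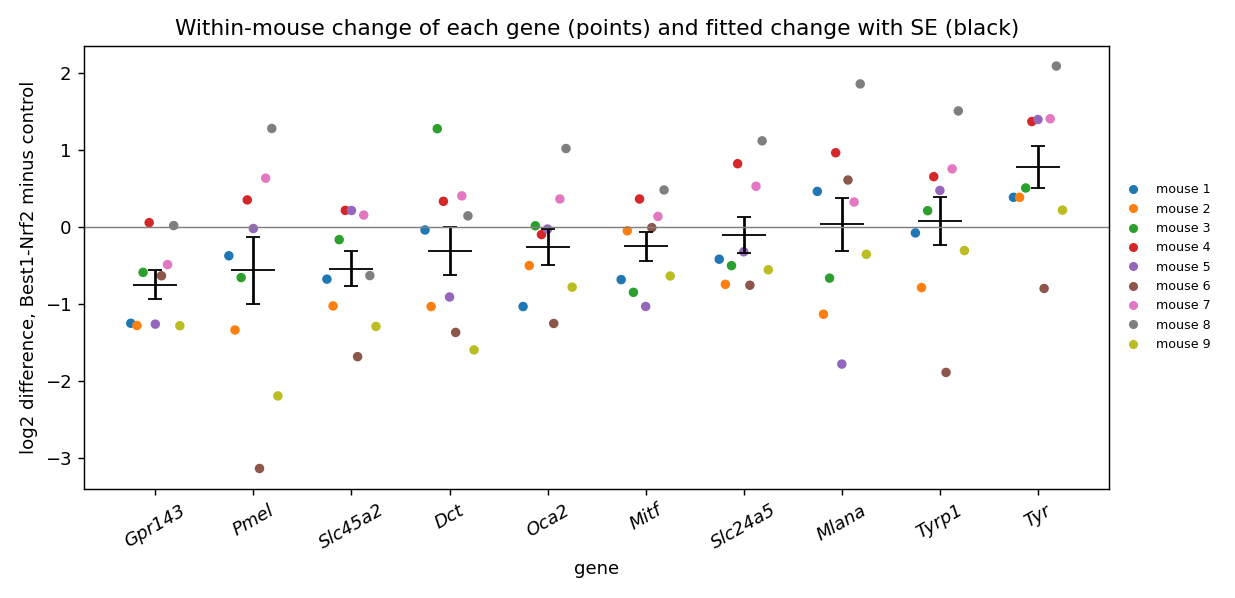
Log2 difference between the Best1-Nrf2 and control eye of each of 9 mice (coloured points) for the 10 genes, ordered by fitted change, with the fitted log2 fold change and its SE in black. The fitted changes run from -0.74 for *Gpr143* to 0.78 for *Tyr*, and mouse 8 is the highest point for 7 genes.

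Per kilobase of exon, the levels in control eyes fell into tiers. *Pmel* (492 ± 244 CPM per kb; SD, n = 9), *Mlana* (479 ± 454), *Dct* (438 ± 153) and *Tyrp1* (307 ± 137) were highest, and neighbours among these 4 did not differ beyond their spread. *Tyrp1* was above *Slc24a5* (142 ± 42.7 CPM per kb) in 9 of 9 eyes, and *Slc24a5* was above *Gpr143* (49.0 ± 14.6) in 9 of 9 eyes (exact sign-flip test, p adjusted over 9 neighbour pairs, 0.0117 each). *Gpr143* and *Oca2* (38.1 ± 17.03) did not differ beyond their spread. *Oca2* was above *Tyr* (27.9 ± 11.5) in 9 of 9 eyes (adjusted exact p = 0.0117) and *Tyr* above *Mitf* (13.1 ± 6.06) in 8 of 9 (0.0264), while *Mitf* and *Slc45a2* (12.3 ± 4.34 CPM per kb) did not differ beyond their spread. With the length of the longest transcript in place of all exons, *Dct* came first and 7 of 9 neighbour pairs passed rather than 4. Without the control eye of mouse 8 the order was the same.

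Across the 9 control eyes the genes varied in groups. Of 45 pairs, 12 passed by Pearson's r (exact permutation p, adjusted over 45) and 6 of these also by Spearman's rho. The control eye of mouse 8 lay low in nearly every gene, and without it 5 pairs passed. *Tyr*, *Oca2* and *Slc45a2* rose and fell together between control eyes: *Tyr* and *Oca2* had r = 0.977 (exact permutation p = 7.72e-05, adjusted 0.00116) and rho = 0.933 (p = 0.00075, adjusted 0.0113), with r = 0.912 without the 2 eyes farthest from the median of *Tyr*. *Tyr* and *Slc45a2* had r = 0.972 (exact permutation p = 3.86e-05, adjusted 0.00112) and rho = 0.933 (p = 0.00075, adjusted 0.0113), with r = 0.935 without the 2 farthest eyes, and *Oca2* and *Slc45a2* had r = 0.949 (p = 0.000138, adjusted 0.00155) and rho = 0.883 (p = 0.00308, adjusted 0.0231), with r = 0.870. *Tyrp1* and *Pmel* had r = 0.977 (exact permutation p = 4.96e-05, adjusted 0.00112), rho = 0.933 (p = 0.00075, adjusted 0.0113) and r = 0.948 without the 2 farthest eyes. *Tyrp1* was tied to the first 3 genes too: with *Slc45a2* it had r = 0.915 (exact permutation p = 0.00121, adjusted 0.00778) and rho = 0.85 (adjusted 0.039), with *Tyr* r = 0.945 (adjusted exact p = 0.00778; rho = 0.783, adjusted 0.0968) and with *Oca2* r = 0.869 (adjusted exact p = 0.0352; rho = 0.70, adjusted 0.189). Without the control eye of mouse 8 these were 0.768, 0.799 and 0.559, and none of the 3 passed. By r alone, *Tyr* with *Pmel* (r = 0.884, adjusted exact p = 0.0335) and *Pmel* with *Slc45a2* (0.834, 0.0352) also passed. So did *Slc24a5* with *Gpr143* (0.879, adjusted exact p = 0.0352) and *Mitf* with *Gpr143* (0.794, 0.048). Without that eye their r values were 0.61, 0.544, 0.541 and 0.521, and none of them passed.

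*Dct* and *Mlana* were the other pair that passed by both measures. They had r = 0.934 (exact permutation p = 0.000262, adjusted 0.00236) and rho = 0.883 (p = 0.00308, adjusted 0.0231), with r = 0.806 without the 2 farthest eyes. Their r with *Tyr* was 0.09 for *Dct* (exact permutation p = 0.814) and -0.14 for *Mlana* (exact permutation p = 0.735). These values rested on the control eye of mouse 8: without it they were -0.50 (exact permutation p = 0.205) and -0.71 (exact permutation p = 0.0517), and *Mlana* with *Oca2* went from -0.23 to -0.81 (exact permutation p = 0.0153, adjusted 0.107). *Mlana* ran opposite to the melanocyte marker score across control eyes by rank (rho = -0.967, exact permutation p = 0.000165, adjusted over 40 relations 0.0066), but not by Pearson's r once adjusted (r = -0.776, p = 0.0143, adjusted 0.114; r = -0.748 without the 2 farthest eyes). In Best1-Nrf2 eyes the same rho was -0.27 (adjusted exact permutation p = 0.992).

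In the 9 Best1-Nrf2 eyes 4 pairs passed, all 4 among the 12 of the control eyes. They were *Tyr* and *Tyrp1* (r = 0.921, exact permutation p = 0.000165, adjusted 0.00743; rho = 0.95), *Tyrp1* and *Pmel* (r = 0.876, adjusted permutation p = 0.0318; rho = 0.833), *Tyrp1* and *Slc45a2* (r = 0.867, adjusted permutation p = 0.0318; rho = 0.967) and *Tyr* and *Slc45a2* (r = 0.859, adjusted permutation p = 0.0352; rho = 0.883). *Dct* and *Mlana* had r = 0.698 there (adjusted permutation p = 0.118). Both values of a point come from a single library, and the difference between the groups was not tested.

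**Figure D4:**
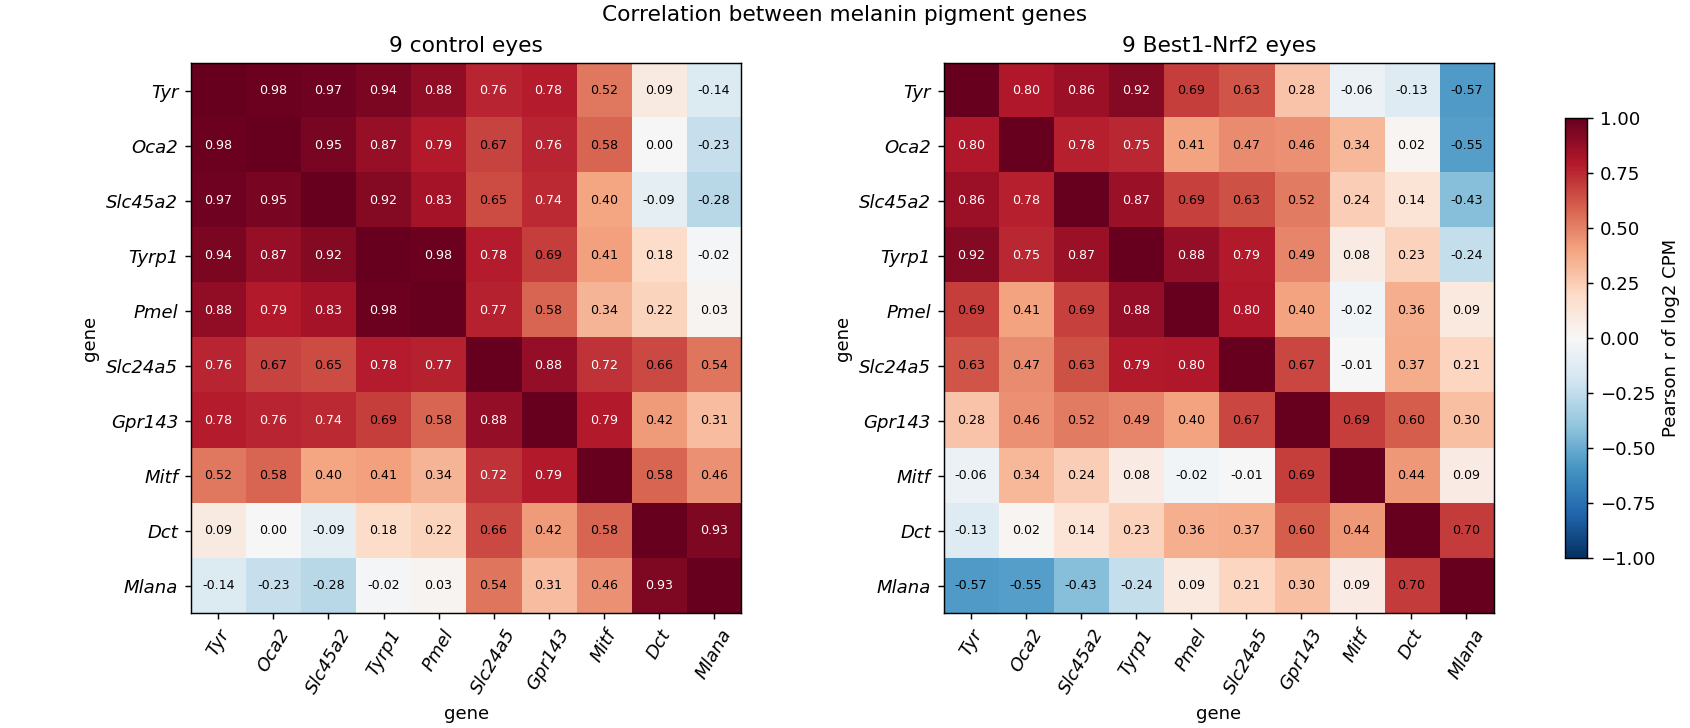
Pearson r of log2 CPM between the 10 melanin pigment genes over 9 control eyes (left) and over 9 Best1-Nrf2 eyes (right), from -1 (blue) to 1 (red), with r printed in each cell. *Tyr*, *Oca2*, *Slc45a2*, *Tyrp1* and *Pmel* make a red block at upper left in both groups, palest for *Pmel* with *Oca2* in Best1-Nrf2 eyes (r = 0.41). In control eyes the red extends to *Slc24a5* and *Gpr143* (r with these genes, 0.585 to 0.784). Without the control eye of mouse 8, *Pmel* with *Oca2* fell from 0.79 to 0.35 there. *Dct* with *Mlana* stand at lower right with r = 0.93 in control eyes and 0.70 in Best1-Nrf2 eyes.

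The wider pigment machinery was read from listed genes. Of 38 genes for the biogenesis and transport of melanosomes, 37 were tested, 1 rose, 0 fell, and the median log2 fold change was 0.02. The share called was 2.7%, against 4.25% over all genes. At an unadjusted p under 0.05 by edgeR there were 4 of the 37, against 12.8% of all genes. The one that rose was *Slc7a11*, the cystine transporter xCT that feeds both pheomelanin and glutathione synthesis, from 16.6 ± 3.34 to 227 ± 135 CPM in 9 of 9 mice (3.53 ± 0.37; adjusted p = 1.61e-04, edgeR). *Slc7a11* is also a known target of Nrf2. Of 15 regulators tested, 0 passed the test by edgeR (0 also at an unadjusted p under 0.05), with a median of -0.08. *Otx2*, a transcription factor that acts with MITF in the RPE, read 395 ± 129 and 323 ± 73.3 CPM (-0.26 ± 0.17; adjusted p = 0.624, edgeR).

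Signals and receptors of melanocytes were also without a call. Of 10 ligands and receptors tested, 0 passed by edgeR (1 at an unadjusted p under 0.05, *Met*), with a median of 0.20. Of the 6 melanocyte markers, 0 passed (0 at an unadjusted p under 0.05), with a median of 0.24. *Sox10*, which specifies melanocytes and also marks Schwann cells, read 29.6 ± 31.7 and 20.1 ± 14.2 CPM (-0.52 ± 0.27; adjusted p = 0.479, edgeR). *Kit*, the receptor for stem cell factor, read 26.3 ± 14.5 and 41.7 ± 29.0 CPM (0.57 ± 0.38; adjusted p = 0.627, edgeR). The melanocyte marker score ran from 2.06 to 3.34 in control eyes and from 1.62 to 2.93 in Best1-Nrf2 eyes, higher in 4 mice and lower in 5. The part of melanocytes in the pigment gene values was not tested beyond these scores.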

How the data were processed

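RNA sequencing of 18 eyecup RNA samples (9 mice, both eyes) was used. Per the labels and the study's methods, polyadenylated RNA was amplified by a kit for low input, libraries were run in 2 sequencing runs that the labels do not assign to libraries, and reads were aligned to mm10 with Ensembl release 91 by STAR, counted by featureCounts and in parallel quantified by Salmon (0.8.1 in the submitters' processing notes). The deposited table holds estimated counts per Ensembl gene, rounded and left without any scaling; that the authors made these expected counts from Salmon was inferred from identical values in near-identical paralogs, as the table names no counter. Columns were matched to samples by name. Totals were 18956748 to 49598700 counts a library. Molecular identifiers are not described, so counting error is the least error. Replicates are animals as numbered in the labels.

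Symbols were found for 47224 of 47729 gene IDs. Coordinates and lengths are from GENCODE mouse release 21 on GRCm38, another release than the authors'. Genes were kept by filterByExpr, scaled by TMM and tested by quasi-likelihood F in edgeR 4.0.16 (R 4.3.3) with mouse as a block, with Benjamini-Hochberg adjustment over the 18958 genes tested and a threshold of 0.05; 806 genes passed. Pairing rests on the animal number, since deviations from the group means correlated little within a mouse (median r, -0.00095; range, -0.37 to 0.64). Log2 CPM used a prior count of 2, and SE values came from the F statistic. The 95% intervals are 1.96 SE, a normal approximation, and are narrower than the F test itself would give. Exact two-sided sign-flip and permutation tests were used within and between genes. A marker score is the mean log2 CPM of a list's tested genes. The fit was tested on simulated data.

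The 10 genes, the 13 other lists and the tests were chosen with earlier results of these data known. Named are the 10 genes; of each list, those past the threshold, at most the 4 with the largest change in each direction, where a result turned on them; *Rpe65*, *Best1*, *Sox10*, *Kit* and *Otx2*; and the 5 genes most correlated with the mean of the 10 over control eyes. *Nfe2l2*, *Met*, *Pax3*, *Mc1r*, *Ednrb*, *Erbb3* and the RPE markers that did not pass were named outside this rule, after their values were seen. Alternatives were DESeq2 1.42.0, limma 3.58.1 (voom with sample weights), RLE and upper-quartile scaling, no filter or at least 10 counts in every library, a prior count of 0.5, no mouse block, marker scores as covariates, and leaving out each mouse. Comparison of all 45 pairs, of each gene with marker scores, the coding transcript length, the correlations in Best1-Nrf2 eyes and those without the control eye of mouse 8, and the pairs without mice 6 and 8 were added after seeing the data.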

Additional observations from a re-analysis of the deposited data

Results flagged for a closer look

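In log2 CPM, the control eye of mouse 8 lay apart from the other 8 control eyes, by Dixon's test at its 95% critical value for 9 samples, in 5 genes. *Tyr* was at 5.555 there against 6.993 in the next eye (gap over range, 0.555), *Tyrp1* at 7.687, *Oca2* at 5.233, *Slc24a5* at 6.909 and *Gpr143* at 5.389. For 20 groups screened (10 genes in both groups) about 1 such result would be expected by chance, and the 5 came from a single eye. The RPE marker score of that eye was 7.92, the lowest of the control eyes, and its melanocyte marker score was 2.73. *Dct* in the Best1-Nrf2 eye of mouse 3 (11115 CPM) came just under the critical value.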

How the results depend on the processing

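The count of 806 calls over all genes became 1636 with DESeq2, 1426 with limma voom, 35 with the photoreceptor score and 224 with the RPE score as a covariate, and 540 to 1046 when a mouse was left out. The count of pigment genes called was 2 with voom, 0 with RLE or upper-quartile scaling, no filter, the photoreceptor or the RPE score, and 0 to 1 when a mouse was left out (without mouse 6 the call was *Tyr*). Without the replicate block, which ignores the pairing, *Gpr143* was at -0.79 (adjusted p = 0.0225) and no other pigment gene's call differed. *Gpr143* was called in 8 of 20 alternatives, and its adjusted p was 0.0552 with RLE, 0.0525 with upper-quartile scaling and 0.0898 with no filter. *Pmel*, *Slc45a2*, *Tyr* and *Gpr143* kept their direction in all 20 alternatives. Signs turned, none past the threshold, for *Mitf* (0.23 with the photoreceptor and 0.28 with the RPE score), *Tyrp1* (-0.57 with the photoreceptor score, -0.01 without mouse 7, -0.093 without mouse 8, and up to 0.31 without mouse 6 and 0.40 with the RPE score), *Dct* (0.11 without the replicate block, 0.20 with the RPE score), *Oca2* (0.24 with the RPE score), *Slc24a5* (0.063 and 0.46 with the photoreceptor and RPE scores) and *Mlana* (-0.15 without the replicate block, -0.0035 with voom, -0.047 with the melanocyte score, -0.30 without mice 6 and 8, -0.087, -0.042, -0.0012 and -0.18 without mouse 4, 6, 7 or 8, up to 0.26 without mouse 5, 0.97 with the photoreceptor and 1.12 with the RPE score). *Pmel* was -0.11 with the RPE and -0.99 with the photoreceptor score. When a mouse was left out, *Pmel* ran from -0.80 (without mouse 8) to -0.27 (mouse 6), *Oca2* from -0.41 (mouse 8) to -0.10 (mouse 1), *Mitf* from -0.34 (mouse 8) to -0.14 (mouse 3), *Dct* from -0.47 (mouse 3) to -0.14 (mouse 9) and *Slc24a5* from -0.24 (mouse 8) to -0.0029 (mouse 1), none of them called. *Tyr* against *Tyrp1* ran from 0.66 to 0.77 and against *Dct* from 0.93 to 1.31 when a mouse was left out. Without mice 6 and 8 *Tyr* against *Dct* was 1.03 (adjusted exact p = 0.0703) and *Tyr* against *Tyrp1* was 0.68 (0.0468), still past the threshold. In those 7 mice 0 of 45 pairs passed rather than 11, with a single direction in 11 pairs. Neighbour pairs that passed in the level order were 7 rather than 4 with the longest transcript length. The cause of each shift was not tested, apart from fewer mice allowing larger p values. The lowest count of a pigment gene in any library was 246, so counting error was small beside the spread between eyes.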

Other observations

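The gene outside the list whose log2 CPM followed the mean of the 10 pigment genes most closely over the 9 control eyes, of 11799 genes whose log2 CPM averaged 2 or more, was *St6galnac3*, a sialyltransferase (r = 0.991, rho = 0.967). Without the control eye of mouse 8 it still ranked 1 (r = 0.923). The next 4 were *Atp5a1* (r = 0.975), a subunit of mitochondrial ATP synthase, *Tspan10* (r = 0.968), a tetraspanin, *St3gal6* (r = 0.964), another sialyltransferase, and *Slc3a2* (r = 0.963), the heavy chain that pairs with xCT. Without that eye their ranks were 14, 32, 15 and 59, with r from 0.63 to 0.771, so their places rested on it. None of the 5 passed the test between groups by edgeR (adjusted p, 0.259 to 0.970).

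The mouse gene *Best1*, whose human promoter drives both vectors, read 1.46 ± 0.520 CPM in controls and 2.80 ± 0.629 CPM with Best1-Nrf2 (log2 fold change, 0.97 ± 0.25; adjusted p = 0.0555, edgeR), higher in 9 of 9 mice and just outside the threshold. Of the other lists, Schwann cell markers had 0 calls of 7 tested (2 at an unadjusted p under 0.05), Müller glia markers 0 of 8 (1 at an unadjusted p under 0.05) and endothelial markers 0 of 8 (0 at an unadjusted p under 0.05), all by edgeR. Among rod markers 3 fell and 1 rose of 10, among inner retina neuron markers 1 rose of 10 (*Nefm*), and among fibroblast and sclera markers 1 rose (*Col3a1*) and 1 fell (*Thbs4*) of 10.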
